A study of Mus musculus with 20 samples.

Results

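Mouse pluripotent cell lines, 4 in number, were compared with mouse embryonic fibroblasts (MEF), the cells from which chemical reprogramming starts. The tested libraries were 1 embryonic stem (ES) cell line (OG4) and 3 lines of chemically induced pluripotent stem (CiPS) cells, made from fibroblasts with small molecules and no transgenes. Among the CiPS lines, CiPS2t came from the three-step method and CaCiPS1t and CaCiPS4t from a method with crotonic acid, a short-chain fatty acid given during induction at 6 to 8 mM from day 16 to day 28. These are called the three-step line and crotonic acid lines 1 and 2, and the 4 line values below always stand in the order ES line, three-step line, crotonic acid line 1 and crotonic acid line 2. The lines were taken as their labels name them, and the 4 lines and MEF make up 5 of the 20 samples of the series; the column whose name matches no label, and the line of the BrdU method, were not used. All cells were of the B6DBA strain, with no allele or transgene named in the labels. Each line and MEF had 1 library of total RNA, so the spread given for the lines is a spread between lines, each of which stands for 1 culture, and MEF has no spread of its own.

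Mouse pluripotent cells are held in their state by a network of transcription factors, with Pou5f1 (OCT4), Sox2 and Nanog at its centre and Esrrb, Klf4, Klf2, Tfcp2l1, Tbx3 and Zfp42 as factors of the naive state, which resembles the epiblast before implantation. They divide fast, with a short gap phase, depend on glycolysis and threonine breakdown, and express many germline genes. Embryonic fibroblasts are mesenchymal cells that build collagen and elastic fibres, carry growth factor and integrin receptors on their surface and keep a record of their place in the body in their Hox genes. Reprogramming takes cells through a loss of the mesenchymal and a gain of an epithelial state before the pluripotency network is switched on.

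Depth and cell markers were checked first. The lines held 20847001 to 25383840 counted reads and MEF 26609755. The 10 genes with the most reads took 5.10 to 5.53% of the counts in the lines and 9.49% in MEF, and mitochondrial genes took 1.56 to 2.24% in the lines and 0.986% in MEF. The 8 markers of pluripotent cells summed to 3670, 4370, 4070 and 3920 CPM (counts scaled by library size) in the lines, against 2.92 CPM in MEF, where 5 of the 8 were at 0. The 10 markers of fibroblasts summed to 15900, 10600, 13000 and 15500 CPM in the lines, against 65700 CPM in MEF. All 10 were lower in the lines, but none was at 0 in them, and the lines held 24.2, 16.1, 19.7 and 23.5% of the MEF sum. The 6 macrophage markers summed to 140, 41.6, 82.4 and 80.5 CPM in the lines, against 110 CPM in MEF, with none at 0 in either. What part fibroblast or macrophage RNA in the line libraries has in the results below was not tested, and fewer cells of a type cannot be told apart from less RNA per cell in bulk samples.

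Of 19597 genes tested, 5172 were higher in the lines than in MEF, which is 26.4% of the genes, and 5548 were lower, which is 28.3%. The test was edgeR's quasi-likelihood test at a Benjamini-Hochberg adjusted p under 0.05 over all genes, and the changes below are its log2 fold changes, lines over MEF, with their standard errors. The groups did not overlap in 5164 of the genes called higher and in all 5548 called lower. Called genes nearly always lie on 1 side of a single MEF library, so these counts add no separate support. The share without overlap over all genes tested was not counted. Among the called genes with more than 3 counts in the group where they were low, 523 of 3679 higher genes and 673 of 5390 lower genes had a fitted change of 8-fold or more, and 122 higher and 94 lower genes one of 32-fold or more. The median size of a call among these genes was 1.27 on the log2 scale for higher genes and 1.40 for lower genes. A further 949 higher genes had no count in MEF, of which 434 were at least 8-fold and 184 at least 32-fold higher counted from a floor of 3 counts. In the other direction 46 lower genes had no count in the lines, of which 32 were at least 8-fold and 10 at least 32-fold lower. The remaining 544 higher and 112 lower genes had 1 to 3 counts where they were low. The balance between the directions depends on the scaling, since 48.2% of the calls were higher genes with TMM factors and 60.0% with total-count scaling, which moved the median log2 fold change of all genes to 0.30, against 0.03 with TMM factors; no gene called in both was called in the opposite direction. With 1 MEF library, the test assumes that MEF varies like the other groups of the series, and an exact permutation of 4 samples against 1 could not go below 0.2 (one-sided).

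**Figure D1:**
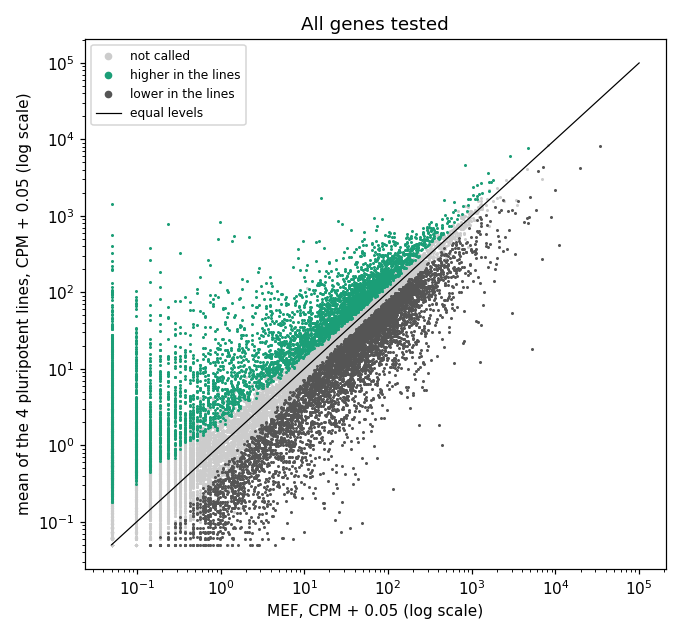
Mean level of each tested gene in the 4 pluripotent lines (vertical axis, CPM + 0.05, log scale) against its level in MEF (horizontal axis, CPM + 0.05, log scale). Green points are the 5172 genes called higher in the lines, dark points the 5548 called lower, and pale points were not called; the line marks equal levels, and the column of green points at the left edge holds genes without a count in MEF.

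All 24 core and naive pluripotency factors were called, 22 higher and 2 lower. The median log2 fold change of the list was 8.08 as fitted and 7.19 with the 6 genes that had no count in MEF set at their lower bound, against 0.03 over all genes tested. Pou5f1, the POU factor that no pluripotent cell can do without, stood at 247, 336, 370 and 374 CPM in the lines, against 0 in MEF. It was at least 2360-fold higher, counted from a floor of 3 counts in MEF (0.141 CPM), and its level was lowest in the ES line. Nanog, the homeobox factor of the naive state, was at 544, 678, 493 and 448 CPM in the lines, against 1.41 CPM in MEF, a log2 fold change of 8.58 ± 0.45 (adjusted p = 2.16e-08). Sox2, the partner of OCT4 on DNA, was at 492, 529, 455 and 419 CPM, against 1.32 CPM in MEF (8.48 ± 0.44). For both genes all lines lay far above MEF and close to each other.

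The orphan nuclear receptor Esrrb had 670, 791, 804 and 867 CPM in the lines, against 0.188 CPM in MEF. The grainyhead-like factor Tfcp2l1 had 790, 1030, 758 and 707 CPM, against 0.941 CPM in MEF (9.76 ± 0.64). Zfp42, a zinc finger gene widely used as a marker of the naive state, had 101, 116, 130 and 116 CPM, against 0 in MEF, and was at least 823-fold higher. Sall4, a zinc finger partner of OCT4 and NANOG, was at least 2890-fold higher, with 410, 469, 389 and 357 CPM in the lines and 0 in MEF. Nr0b1 (DAX1), an orphan receptor on the X chromosome, was at least 1450-fold higher. Prdm14, which keeps naive cells from the primed state and is needed for germ cells, was at least 104-fold higher and ran from 8.63 CPM in crotonic acid line 2 to 19.2 CPM in the three-step line. Tfap2c, a factor of naive and germ cells, had 45.4, 52.1, 59 and 42.7 CPM in the lines, against 0.0941 CPM (2 counts) in MEF, a ratio of 530.1 with an exact 95% counting interval of 146.7 to 4379.

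The octamer ATGCAAAT, bound by OCT4, stood once in the promoter window of Zfp42, which is shown because the gene is silent in MEF and on in every line. The sequence runs 5′ to 3′ on the gene's strand, from 250 bases before to 50 bases after the RefSeq start (GRCm38.p6, chr8:43306960-43307259, minus strand), and the capitals mark the octamer, read here on its other strand as ATTTGCAT.
Zfp42: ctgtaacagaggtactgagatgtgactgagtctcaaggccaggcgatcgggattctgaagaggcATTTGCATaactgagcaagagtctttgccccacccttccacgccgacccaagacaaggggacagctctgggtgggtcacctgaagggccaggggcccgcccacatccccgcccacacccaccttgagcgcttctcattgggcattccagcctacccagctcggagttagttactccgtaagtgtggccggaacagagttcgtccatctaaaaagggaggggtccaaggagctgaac
The match begins 186 bases before the start. On either strand, the octamer was found in 1.97% of all 27025 windows and in 1.69% of the windows of genes tested. It stood in 2.11% of the windows of genes called higher and in 1.87% of those called lower. Among genes silent in MEF and on in all lines, 8 of the 124 windows (6.45%) held it. So did 1 of 17 windows of core and naive pluripotency factors and 2 of 20 of pluripotency-associated genes. Interstitial matrix genes, none of which was called higher, had it in 2 of 28 windows (7.14%), and germline genes in 0 of 36. A match is a description of the letters and does not show binding.

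Several factors of the naive network were already present in MEF, and their differences were smaller. Klf4, one of the classic reprogramming factors, was at 958, 1060, 814 and 866 CPM in the lines, against 68.6 CPM in MEF (3.75 ± 0.39, adjusted p = 3.67e-06). Klf2 was at 448, 490, 349 and 384 CPM, against 50.9 CPM in MEF (3.04 ± 0.40), and Klf5 at 217, 242, 280 and 262 CPM, against 19.8 CPM in MEF (3.66 ± 0.48). Tbx3, a T-box factor, was at 468, 648, 370 and 390 CPM, against 48.8 CPM in MEF (3.27 ± 0.46). The T-box gene and the 3 Klf genes thus stood 3 to 4 log2 units above a MEF level of 19.8 CPM or more.

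The 2 members of the list that were lower are also factors of growth signalling. Myc, the proliferation factor used in the first reprogramming cocktails, had 31.5, 20.2, 24.3 and 26.8 CPM in the lines, against 96 CPM in MEF, and fell by 1.90 ± 0.38 on the log2 scale (adjusted p = 0.000786). Stat3, which carries the LIF signal to the nucleus, had 160, 143, 175 and 201 CPM in the lines, against 326 CPM in MEF (-0.94 ± 0.15, adjusted p = 0.000111). Every line lay below MEF for both genes.

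**Figure D2:**
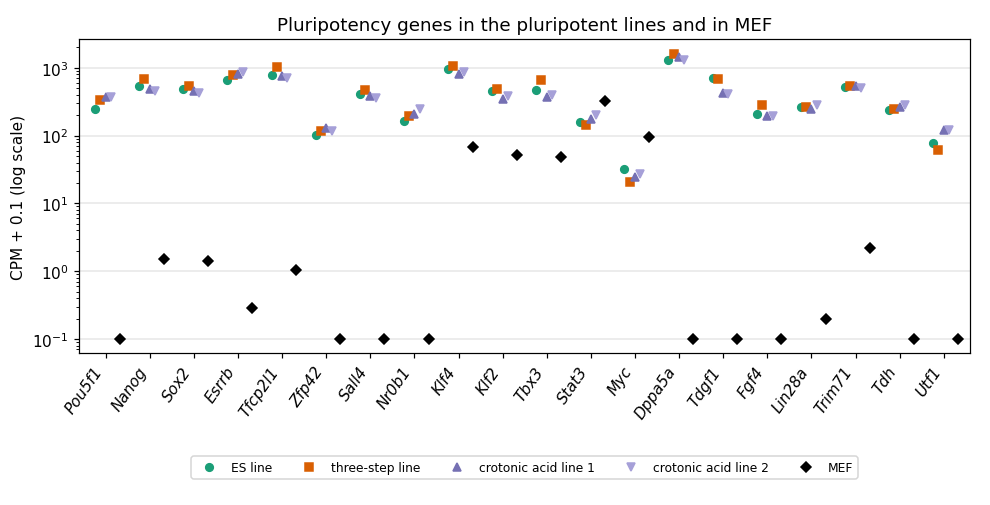
Level of 20 pluripotency genes (CPM + 0.1, log scale) in each of the 4 pluripotent lines (coloured points) and in MEF (black diamonds). The lines lie close together for each gene and far above MEF, except for Stat3 and Myc, where MEF is higher, and for Klf4, Klf2 and Tbx3, where MEF has 48.8 to 68.6 CPM.

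Of 36 further pluripotency-associated genes, 35 were higher and none lower. No count was found in MEF for 10 of them, which could therefore not be called lower. Dppa5a, an RNA-binding protein gene of pluripotent cells, had 1300, 1610, 1440 and 1300 CPM in the lines and 0 in MEF, at least 10000-fold higher. Utf1, a chromatin protein gene under the control of OCT4 and SOX2, had 76.4, 62.1, 121 and 119 CPM in the lines and 0 in MEF. It was at least 666-fold higher, with both crotonic acid lines above the other 2 lines. Dppa2, whose protein works with that of Dppa4 to open chromatin, was at least 714-fold higher, with 129, 116, 82.4 and 76 CPM in the lines and 0 in MEF. The germ cell gene Nanos3 was the member not called, at 1.39, 1.28, 1.06 and 0.443 CPM in the lines and 0.612 CPM in MEF (0.77 ± 0.58, adjusted p = 0.279). Dppa3 (Stella), a maternal factor that guards methylation in the zygote, was low in the lines, at 5.92, 8.59, 10.3 and 5.67 CPM, against 0.141 CPM (3 counts) in MEF, a ratio of 54.25 (interval 18.49 to 263.7).

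RNA regulators of the let-7 axis were among the genes with even levels across the lines. Lin28a, which blocks the processing of let-7 microRNAs, had 260, 264, 250 and 282 CPM in the lines, against 0.0941 CPM (2 counts) in MEF, a ratio of 2809 (interval 777.6 to 23200). Trim71, an RNA-binding protein gene and let-7 target, had 526, 542, 540 and 505 CPM in the lines, against 2.12 CPM in MEF (7.96 ± 0.81). Igf2bp1, another let-7 target, had 719, 764, 753 and 702 CPM in the lines, against 73.4 CPM in MEF (3.32 ± 0.46). Each of the 3 genes had nearly the same level in all lines. Of 39 genes for RNA-binding and splicing regulators, 18 were higher (46.2%, against 26.4% of all genes tested) and 7 lower (17.9%, against 28.3%). Among the lower were the splicing factors Mbnl1 (63.7, 46.7, 72.5 and 78.1 CPM in the lines, 214 CPM in MEF, -1.71 ± 0.32) and Mbnl2 (-1.30 ± 0.18), which promote differentiated splicing.

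Genes of the primed and formative states, which follow implantation, were mixed. Of 18 tested, 10 were higher, 1 was lower and 7 were not called. Dnmt3b, a de novo DNA methyltransferase, had 73.6, 50.9, 110 and 103 CPM in the lines, against 4.28 CPM in MEF (4.30 ± 0.65). Zic2, a zinc finger factor of the formative state, had 51.8, 81.7, 73.3 and 80.7 CPM, against 5.97 CPM in MEF (3.59 ± 0.30). Both lay above MEF in every line. Fgf5, the standard marker of the primed state, had 1.39, 0.762, 0.649 and 1.59 CPM in the lines, against 1.74 CPM in MEF (-0.66 ± 0.68, adjusted p = 0.43), and was low in all 5 libraries. Otx2, a factor of the exit from the naive state, had 2.19, 7.95, 2.46 and 1.20 CPM in the lines and 0 in MEF, with the three-step line above the others.

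Signals that pluripotent cells send and read changed in both directions. Of 45 genes of the TGF-beta, BMP and activin pathways, 8 were higher (17.8%, against 26.4% of all genes tested) and 24 lower (53.3%, against 28.3%). The ligand Nodal had 115, 122, 91.3 and 82.4 CPM in the lines and 0 in MEF, at least 730-fold higher, and its co-receptor Tdgf1 (Cripto) had 696, 688, 431 and 411 CPM and 0 in MEF, at least 3950-fold higher. Lefty2, an inhibitor and target of Nodal, had 52.1, 33.8, 83.4 and 73.6 CPM in the lines and 0.0471 CPM (1 count) in MEF, a ratio of 1276 (interval 228.9 to 50400). Receptors were split: the activin receptor Acvr2b was higher (3.48 ± 0.55), with 16.5, 18, 18.7 and 18.4 CPM in the lines and 1.60 CPM in MEF, and the BMP receptor Bmpr2 was lower (-1.52 ± 0.16), with 75.1, 59, 61.9 and 63.7 CPM in the lines and 186 CPM in MEF. The ligand Bmp4 had 13.3, 9.43, 13.9 and 15.2 CPM in the lines and 131 CPM in MEF (-3.34 ± 0.37). The TGF-beta receptor Tgfbr2 had 85, 35.7, 49.7 and 62 CPM in the lines and 400 CPM in MEF (-2.78 ± 0.43).

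Of 50 genes of FGF, LIF and receptor tyrosine kinase signalling, 14 were higher and 25 lower. Fgf4, the FGF that pluripotent cells make themselves, had 210, 283, 197 and 196 CPM in the lines and 0 in MEF, at least 1590-fold higher. Kit, the stem cell factor receptor, had 126, 188, 169 and 159 CPM in the lines and 3.86 CPM in MEF (5.38 ± 0.42), while its ligand Kitl had 8.40, 4.17, 6.35 and 7.57 CPM in the lines and 17 CPM in MEF (-1.37 ± 0.31). The ligand and its receptor thus differed in opposite directions. Of the LIF receptor chains, Lifr had 60.4, 71.9, 83.9 and 73.7 CPM in the lines and 54.9 CPM in MEF and was not called (0.40 ± 0.25, adjusted p = 0.187); with total-count scaling it was called (0.668, adjusted p = 0.0308). Il6st (gp130), the shared chain, had 167, 134, 180 and 174 CPM in the lines and 659 CPM in MEF (-2.01 ± 0.16). Socs3, a feedback inhibitor of STAT3, was higher, at 157, 120, 130 and 136 CPM in the lines and 59.8 CPM in MEF (1.18 ± 0.33, adjusted p = 0.00752). Readouts of FGF signalling went both ways: the ETS factor Etv5 had 486, 458, 533 and 534 CPM in the lines and 52.1 CPM in MEF (3.27 ± 0.39), and the phosphatase Dusp6 had 41.2, 35.4, 33.6 and 36.5 CPM in the lines and 83.7 CPM in MEF (-1.19 ± 0.27).

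Wnt pathway genes were higher in 11 of 43 cases and lower in 24. The share higher, 25.6%, was close to the 26.4% of all genes tested, while 55.8% were lower, against 28.3%. Among the higher were the feedback genes Axin2, with 80.2, 91.9, 71.3 and 76.7 CPM in the lines and 14.1 CPM in MEF (2.51 ± 0.25), and Sp5, with 13.4, 9.99, 16.4 and 18 CPM in the lines and 0.188 CPM in MEF (6.22 ± 0.80). Tcf7, a nuclear effector, had 50.3, 57.7, 56.1 and 60.9 CPM in the lines and 3.86 CPM in MEF (3.86 ± 0.24). All 3 lay above MEF in every line. Other inhibitors and receptors were lower: Nkd1 had 3.53, 3.33, 2.73 and 3.76 CPM in the lines and 84.8 CPM in MEF (-4.66 ± 0.25), and the receptor Fzd2 had 25, 18.9, 18.2 and 17.2 CPM in the lines and 301 CPM in MEF (-3.92 ± 0.28), whereas Fzd5 was higher, with 159, 212, 172 and 177 CPM in the lines and 33.1 CPM in MEF (2.44 ± 0.21). Sfrp2, a secreted Wnt inhibitor, was nearly flat across the lines at 4.92, 4.98, 5 and 5.89 CPM, against 285 CPM in MEF (-5.78 ± 0.29).

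Some genes were off in MEF and on in every line, or the reverse. By limits on the level, with no test, 190 genes were under 0.1 CPM in MEF and at 5 CPM or more in each line, which is 0.399% of the 47643 identifiers, and 8 genes (0.0168%) were under 0.1 CPM in each line and at 5 CPM or more in MEF. Of the 190, 169 code for protein, 122 had no count in MEF, and 53 stood in a gene list. Their median level in the lines was 20.2 CPM, and 19 were at 100 CPM or more. The same genes were partly on in the reprogramming cultures: 48 of them had 1 CPM or more at day 16, 111 at day 28 without crotonic acid and 132 at day 28 with it. Their median level was 0.299% of the mean of the lines at day 16, 6.06% at day 28 without crotonic acid and 10.6% at day 28 with it; the cultures hold cells in many states.

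Chromosomes 4 and 7 held 33 of the 190 genes each. Chromosome 4 had 17.4% of them, against 6.49% of the genes tested, and chromosome 7 had 17.4%, against 8.03%. On chromosome 4, 11 of the 33 were Zfp zinc finger genes and Rex2, a group that was picked out after its values were seen. Zfp534 had 114, 128, 100 and 89 CPM in the lines and 0 in MEF, and Zfp988 had 99.5, 125, 99.8 and 84.8 CPM and 0 in MEF. Zfp978, Zfp980, Zfp981, Zfp985 and Zfp987 each had 42.8 to 79.9 CPM in the lines and no count in MEF. The members of this cluster are alike in sequence, so reads may have been split between them and each single level is uncertain. On chromosome 7 the group included Fgf4, Utf1, Tdrd12, Crxos, a homeobox gene of the early embryo (24.2, 29.2, 13.9 and 13.7 CPM in the lines and 0 in MEF), and AU018091, which had 183, 204, 209 and 191 CPM in the lines and 0 in MEF.

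Genes that were off in the lines included Scg2, Alb, Chodl, Abcc9, Adamts18, Fgb and Fga. Abcc9, a subunit of a potassium channel of smooth muscle and pericytes, had 2 counts over all 4 lines and 27.6 CPM in MEF, 1232-fold lower in the lines (interval 339.4 to 10190). Chodl, a lectin gene, had 3 counts over the lines and 35 CPM in MEF, 1039-fold lower (interval 354.2 to 5051). Alb, Fga and Fgb encode plasma proteins of the liver: Alb had 4 counts over the lines and 49.3 CPM in MEF. All 3 are themselves among the 7 hepatocyte markers, which together came to 10.2, 9.51, 11.4 and 13.5 CPM in the lines and 70.8 CPM in MEF. Of the other markers, Ahsg had 0.348, 0.522, 0.788 and 0.576 CPM in the lines and 6.59 CPM in MEF, while Apoa2, which made up most of the sum in the lines, had 9.75, 8.91, 10.6 and 12.7 CPM in the lines and 1.55 CPM in MEF. What part liver cells have in these levels was not tested.

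Germline genes, many of which are kept silent in body cells by promoter methylation, were higher in 35 of 41 tested cases and lower in none. Their median log2 fold change was 5.81 as fitted and 4.28 with members at 0 in MEF set at their bound. Of the 44 genes listed, 14 had no count in MEF and so could not be called lower. Tdrd12, a Tudor gene of the piRNA pathway, had 45.6, 34.9, 51.9 and 47.2 CPM in the lines and 0 in MEF, at least 315-fold higher. Rnf17, another Tudor gene, had 101, 123, 117 and 102 CPM in the lines and 0.47 CPM in MEF (7.86 ± 0.67). Dazl, the RNA-binding protein gene of germ cells, had 30.2, 50.6, 24.2 and 20.3 CPM in the lines and 0.141 CPM (3 counts) in MEF, a ratio of 226.4 (interval 77.39 to 1098). Ddx4 (Vasa), a helicase gene of the germline, had 31.3, 37.2, 21.5 and 19.7 CPM in the lines and 1.98 CPM in MEF (3.79 ± 0.48). Mael, a piRNA gene, had 11.9, 14, 6.02 and 5.27 CPM in the lines and 0 in MEF, at least 66-fold higher. Tdrd12 and Rnf17 were even across the lines, whereas Dazl, Ddx4 and Mael were lowest in the crotonic acid lines.

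Genes of meiosis took part as well. Hormad1, a protein of the chromosome axis, had 10.2, 12, 27.1 and 18.4 CPM in the lines and 0 in MEF, at least 120-fold higher, with both crotonic acid lines above the other 2. Sycp3, of the synaptonemal complex, had 4.18, 8.15, 5.51 and 4.47 CPM in the lines and 0.0941 CPM (2 counts) in MEF, a ratio of 60.41 (interval 16.64 to 500.2). Taf7l, a testis form of a general transcription factor on the X chromosome, had 7.11, 8.87, 2.69 and 2.35 CPM in the lines and 0 in MEF, at least 37-fold higher. These levels are low, and Sycp3 and Taf7l had under 10 CPM in every line.

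The E-box CACGTG, a word read by MYC, MAX and MGA proteins, was counted in the promoter windows of the germline list. It stood in 15 of the 36 germline windows (41.7%), against 8.09% of all 27025 windows, 10.9% of the windows of genes tested, 12.8% of those called higher and 9.51% of those called lower. The word reads the same on both strands. The windows of 3 germline genes are shown, with the E-box in capitals, as genes with no or few counts in MEF that differ in how many copies they hold; each runs 5′ to 3′ on the gene's strand from 250 bases before to 50 after the RefSeq start (GRCm38.p6), at chr3:95559427-95559726 (plus strand) for Hormad1, chr10:88459337-88459636 (plus strand) for Sycp3 and chrX:134476441-134476740 (minus strand) for Taf7l.
Hormad1: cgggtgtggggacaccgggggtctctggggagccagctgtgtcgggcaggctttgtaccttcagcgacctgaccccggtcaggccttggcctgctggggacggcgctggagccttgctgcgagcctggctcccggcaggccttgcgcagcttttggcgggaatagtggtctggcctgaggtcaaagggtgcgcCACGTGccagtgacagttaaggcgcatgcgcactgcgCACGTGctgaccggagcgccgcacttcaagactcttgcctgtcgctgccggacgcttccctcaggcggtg
Sycp3: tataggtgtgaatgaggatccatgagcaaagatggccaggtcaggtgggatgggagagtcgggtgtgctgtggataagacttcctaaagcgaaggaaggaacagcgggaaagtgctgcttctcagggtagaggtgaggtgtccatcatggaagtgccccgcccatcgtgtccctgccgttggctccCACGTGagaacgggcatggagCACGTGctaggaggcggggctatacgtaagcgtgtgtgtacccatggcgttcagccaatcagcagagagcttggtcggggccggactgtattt
Taf7l: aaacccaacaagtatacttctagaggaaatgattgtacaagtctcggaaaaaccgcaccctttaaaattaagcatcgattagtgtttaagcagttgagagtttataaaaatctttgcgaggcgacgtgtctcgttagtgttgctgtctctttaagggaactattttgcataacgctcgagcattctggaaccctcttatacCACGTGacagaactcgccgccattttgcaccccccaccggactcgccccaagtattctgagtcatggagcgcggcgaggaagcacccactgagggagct
Hormad1 and Sycp3 hold 2 copies each, within 64 bases of the start, and Taf7l holds 1, which begins 49 bases before it. Of the 15 germline genes with the word, 13 were higher in the lines and 2 were not called; of the 21 without it, 15 were higher, 3 were not called and 3 were not tested.

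Genes of the two-cell embryo, which pluripotent cultures express in a small and changing share of cells, were higher in 24 of 26 tested cases and lower in none. Over all genes tested, 26.4% were higher and 28.3% lower. Of the 28 genes listed, 23 had no count in MEF and so could not be called lower. The list summed to 1023, 1023, 365.3 and 235 CPM in the lines, against 1.317 CPM in MEF. Zscan4c, a member of the Zscan4 cluster that is tied to telomere elongation in ES cells, had 145, 132, 46.4 and 28.2 CPM in the lines and 0 in MEF, at least 624-fold higher. Zscan4d had 98.9, 81.7, 31.1 and 21.4 CPM in the lines and 0 in MEF, at least 412-fold higher. Calcoco2, another gene of this state, had 113, 155, 60.8 and 45.1 CPM in the lines and 0 in MEF, at least 672-fold higher. In all 3 genes both crotonic acid lines lay below the ES and three-step lines. Zscan4 copies are nearly identical, so reads may be split between them.

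Telomere genes were higher in 27 of 36 cases and lower in 4, with a median log2 fold change of 1.37. Tert, the catalytic subunit of telomerase, had 15.9, 18.5, 13.2 and 11.4 CPM in the lines and 5.13 CPM in MEF (1.52 ± 0.31, adjusted p = 0.00096). Dkc1, which stabilises the telomerase RNA, had 236, 231, 244 and 238 CPM in the lines and 41.7 CPM in MEF (2.51 ± 0.21). Terf1, a shelterin protein bound to telomere repeats, had 83.5, 89.5, 118 and 109 CPM in the lines and 17.5 CPM in MEF (2.51 ± 0.29). All lines lay above MEF for these genes. Shelterin genes differed among themselves: Tinf2 had 42.5, 44.2, 42.1 and 41 CPM in the lines and 17.6 CPM in MEF (1.27 ± 0.21), and Pot1a had 23.8, 18.6, 23.8 and 20.3 CPM in the lines and 11.6 CPM in MEF (0.90 ± 0.17). Terf2 had 32.1, 36.4, 34.9 and 32 CPM in the lines and 41.4 CPM in MEF and was not called (-0.29 ± 0.14, adjusted p = 0.106). Rif1, a replication timing factor that also guards telomeres in ES cells, was at 681, 647, 656 and 594 CPM in the lines and 35.7 CPM in MEF (4.18 ± 0.35). Zscan10, a telomere and genome stability factor of pluripotent cells, had 91, 81.5, 118 and 122 CPM in the lines and 0.0471 CPM (1 count) in MEF, a ratio of 2188 (interval 392.6 to 86430). Ten1, of the complex that limits telomerase, was lower, at 6.02, 6.74, 7.18 and 7.26 CPM in the lines and 13.6 CPM in MEF (-1.0 ± 0.24). Ctc1, also of that complex, went the other way, with 249% of its MEF level as a mean of the lines.

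DNA methylation enzymes and readers were higher in 7 of 14 cases and lower in 4. Over all genes tested, 26.4% were higher and 28.3% lower, so the lower members, 28.6% of this list, were about as frequent as among all genes. Dnmt3l, the germline cofactor of the de novo enzymes, had 130, 136, 109 and 174 CPM in the lines and 0.0941 CPM (2 counts) in MEF, a ratio of 1465 (interval 405.6 to 12100). Uhrf1, which guides maintenance methylation, had 433, 492, 666 and 642 CPM in the lines and 93.4 CPM in MEF (2.58 ± 0.41). Dnmt3a had 146, 154, 84.4 and 90.7 CPM in the lines and 158 CPM in MEF and was not called (-0.41 ± 0.25, adjusted p = 0.184). The dioxygenases that undo methylation split: Tet1 had 453, 491, 469 and 446 CPM in the lines and 15.1 CPM in MEF (4.95 ± 0.42), and Tet2 had 174, 269, 134 and 135 CPM in the lines and 25.6 CPM in MEF (2.80 ± 0.39). Tet3 was lower, at 46.6, 31.5, 33.1 and 43.5 CPM in the lines and 121 CPM in MEF (-1.64 ± 0.21). The lower members also included the reader Mbd2, at 31.2, 27.9, 33.5 and 35.5 CPM in the lines and 80.1 CPM in MEF (-1.32 ± 0.14).

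Chromatin regulators were higher in 30 of 56 cases and lower in 16. The share lower, 28.6%, was close to the 28.3% of all genes tested, while 53.6% were higher, against 26.4%. Within Polycomb, the core genes of the methylating complex were higher: Eed had 188, 209, 232 and 237 CPM in the lines and 47.2 CPM in MEF (2.20 ± 0.17), Suz12 had 281, 346, 342 and 286 CPM in the lines and 78.2 CPM in MEF (2.0 ± 0.20), and the accessory gene Jarid2 had 359, 481, 337 and 347 CPM in the lines and 32.6 CPM in MEF (3.55 ± 0.22). The chromobox genes, which read that mark, changed in opposite directions. Cbx7, the main form of pluripotent cells, had 133, 154, 150 and 160 CPM in the lines and 1.74 CPM in MEF (6.42 ± 0.39). Cbx6 had 66.3, 69.1, 75.5 and 83 CPM in the lines and 372 CPM in MEF (-2.34 ± 0.31), and Cbx8 was lower as well (-1.31 ± 0.21). Subunits of the BAF remodeller that mark differentiated cells were lower: Smarca2 (BRM) had 20.5, 25.3, 19.9 and 21.6 CPM in the lines and 132 CPM in MEF (-2.60 ± 0.23), and Smarcc2 had 54.6, 51.2, 49 and 54.4 CPM in the lines and 204 CPM in MEF (-1.96 ± 0.10). The linker histone gene H1f0, typical of resting and differentiated cells, had 72.1, 62.4, 50 and 61.7 CPM in the lines and 479 CPM in MEF (-2.96 ± 0.15).

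Cell cycle and replication genes were higher in 34 of 42 cases and lower in 1, with a median log2 fold change of 1.36. The replication helicase gene Mcm2 had 432, 446, 516 and 501 CPM in the lines and 103 CPM in MEF (2.21 ± 0.34). Mybl2, an activator of cell cycle genes that stood in the pluripotency list, had 819, 939, 852 and 854 CPM in the lines and 25.4 CPM in MEF (5.09 ± 0.51). Cyclin E1 (Ccne1) had 71.1, 59.3, 100 and 88.7 CPM in the lines and 37.6 CPM in MEF (1.08 ± 0.27). Every line lay above MEF in these genes. The D cyclins differed: Ccnd2 was lower, at 377, 321, 296 and 309 CPM in the lines and 1110 CPM in MEF (-1.77 ± 0.29), while Ccnd1 (105, 81.8, 110 and 113 CPM in the lines, 84.5 CPM in MEF) and Ccnd3 were not called.

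Cell cycle inhibitors, D cyclins and p53 targets were counted together, in a list that also held Cdk4, Cdk6 and survival genes. Its members were higher in 10 of 38 cases (26.3%) and lower in 11 (28.9%), close to the shares of all genes tested. Cdkn1c (p57), an imprinted inhibitor, had 3.28, 1.77, 1.02 and 1.20 CPM in the lines and 236 CPM in MEF, and was among the largest falls of the list (-7.03 ± 0.32, adjusted p = 1.01e-08). Cdkn2c (p18) had 3.68, 3.57, 2.87 and 3.28 CPM in the lines and 32.6 CPM in MEF (-3.28 ± 0.22), and Cdkn2b (p15) had 18.2, 16.3, 11.8 and 14.6 CPM in the lines and 78.8 CPM in MEF (-2.37 ± 0.51). All 3 were below MEF in every line. Cdkn2a, a barrier to reprogramming, had 32.2, 32.1, 21.9 and 24 CPM in the lines and 17.9 CPM in MEF and was not called (0.62 ± 0.52, adjusted p = 0.336), though it was called higher in a fit of the 5 libraries alone (adjusted p = 0.0497). Trp53 itself was higher and had 263, 320, 335 and 308 CPM in the lines and 154 CPM in MEF (0.99 ± 0.18). Mdm2, its target and inhibitor, had 621, 471, 475 and 519 CPM in the lines and 118 CPM in MEF (2.14 ± 0.32), and the death gene Pmaip1 (NOXA) had 256, 202, 177 and 161 CPM in the lines and 30.6 CPM in MEF (2.70 ± 0.69). The survival genes split, with Mcl1 higher (825, 904, 815 and 818 CPM in the lines, 328 CPM in MEF, 1.36 ± 0.13) and Bcl2 lower (3.03, 2.01, 2.08 and 2.52 CPM in the lines, 20.9 CPM in MEF, -3.11 ± 0.32).

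Interstitial matrix genes, the products by which fibroblasts are known, were lower in 40 of 45 cases and higher in none. Their sum was 36560 ± 5967 CPM in the lines (SD, n = 4 lines) and 147600 CPM in MEF. Eln (elastin) had 23.3, 12.3, 16.4 and 20.3 CPM in the lines and 5280 CPM in MEF, the largest fall of the list (-8.19 ± 0.42, adjusted p = 1.78e-08). The microfibril gene Mfap2 had 9.10, 5.38, 5.79 and 6.86 CPM in the lines and 264 CPM in MEF (-5.28 ± 0.25), and the proteoglycan gene Dcn (decorin) had 12.5, 7.14, 12.7 and 15.3 CPM in the lines and 264 CPM in MEF (-4.48 ± 0.64). The fibrillar collagens were lower by less: Col1a1 had 9360, 6420, 7700 and 9140 CPM in the lines and 34200 CPM in MEF (-2.07 ± 0.57, adjusted p = 0.00711), and Col3a1 had 1150, 583, 967 and 1210 CPM in the lines and 8780 CPM in MEF (-3.17 ± 0.65). With the ES line as the only line, Col1a1 was not called. Thbs1 (thrombospondin) and Fbln2 (fibulin) were not called, with 3680, 2600, 2810 and 3180 CPM in the lines and 6850 CPM in MEF for Thbs1 (-1.16 ± 0.51, adjusted p = 0.0677); in a fit of the 5 libraries alone both were called lower (adjusted p = 0.00191 for Thbs1 and 0.0289 for Fbln2).

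The matrix genes did not fall by a common factor. Across the 45, the mean of the lines ran from 0.342% of the MEF level (Eln) to 63.8% (Fbln2), with a median of 19.9%; 7 were under 5% and 5 over 50%. By line, the median was 23.7, 15.7, 18.5 and 22.0% of MEF, and the three-step line was the lowest of the lines in 39 of the 45 genes. Of the 10 fibroblast markers, 5 are matrix genes of this list. The other 5 (Thy1, Pdgfra, Pdgfrb, Twist1 and Prrx1) were each lowest in that line among the lines, and so was the sum of the 6 macrophage markers. What part fibroblasts within the line cultures have in these remaining levels was not tested.

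**Figure D3:**
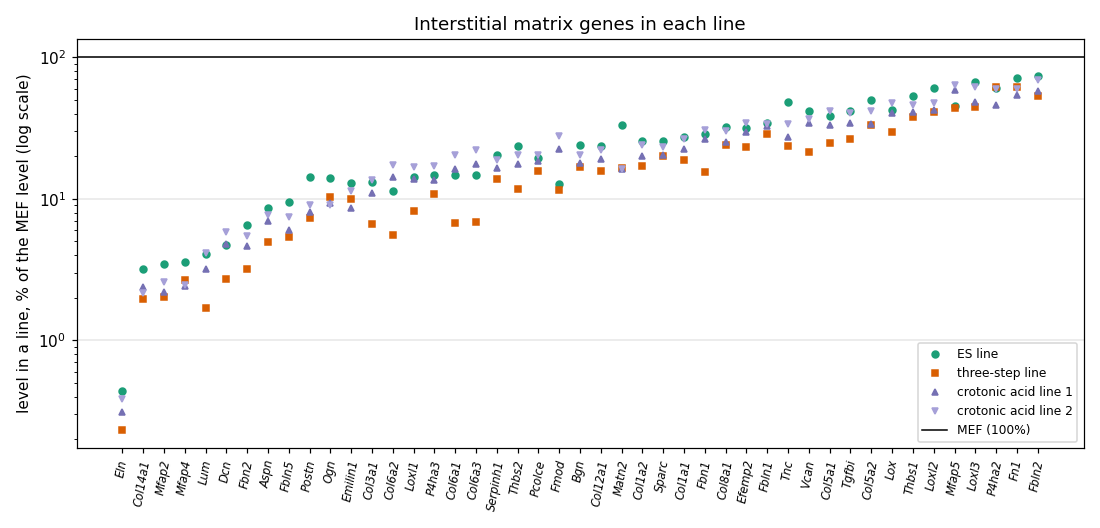
Level of each of the 45 interstitial matrix genes in each line as a percentage of its level in MEF (vertical axis, log scale), ordered by the mean of the lines; the black line marks the MEF level. Values run from 0.342% for Eln to 63.8% for Fbln2 as means of the lines, and the three-step line (squares) is lowest in 39 of 45 genes.

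Other mesenchymal groups went the same way. Transcription factors of mesenchyme were lower in 52 of 69 cases and higher in 5. Twist1, a master factor of mesenchymal identity, had 22.3, 14.4, 20.4 and 22.3 CPM in the lines and 170 CPM in MEF (-3.10 ± 0.36), and Prrx1, a limb mesenchyme factor, had 114, 77.8, 126 and 148 CPM in the lines and 779 CPM in MEF (-2.74 ± 0.58). Meox1, a homeobox factor of the somites, was under 0.5 CPM in every line, at 0.497, 0.201, 0.371 and 0.399 CPM, against 40.1 CPM in MEF (-6.77 ± 0.56). Of the 5 that were higher, Klf9 had 307, 328, 282 and 275 CPM in the lines and 47.7 CPM in MEF (2.64 ± 0.16), and Tead4, also a factor of trophoblast, had 27.9, 40.4, 50.1 and 47.5 CPM in the lines and 7.25 CPM in MEF (2.52 ± 0.37). Surface, integrin and cytoskeleton genes were lower in 46 of 58 cases and higher in none. The growth factor receptor Pdgfra had 8.85, 5.38, 11.5 and 13.6 CPM in the lines and 227 CPM in MEF (-4.53 ± 0.31), and Thy1, a fibroblast surface marker, had 118, 69.7, 104 and 118 CPM in the lines and 745 CPM in MEF (-2.87 ± 0.46). Vim, the mesenchymal intermediate filament, had 1870, 1240, 1490 and 1760 CPM in the lines and 3370 CPM in MEF and was not called (-1.08 ± 0.45, adjusted p = 0.0531). Matrix enzymes and their inhibitors were lower in 19 of 29 cases and higher in none, among them the gelatinase Mmp2, at 79.2, 53.9, 46 and 53 CPM in the lines and 497 CPM in MEF (-3.10 ± 0.59).

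By the size of the change, the largest falls among genes at 10 CPM or more in MEF also held genes outside the lists. Col8a2, a short-chain collagen, had 0.746, 0.602, 1.20 and 1.33 CPM in the lines and 440 CPM in MEF (-8.82 ± 0.38, adjusted p = 7.19e-09). Mgp, which keeps matrix from calcifying, had 2.29, 1.16, 1.76 and 2.04 CPM in the lines and 409 CPM in MEF (-7.82 ± 0.67). The angiotensin receptor Agtr2 had 0.497, 0, 0.139 and 0.221 CPM in the lines and 114 CPM in MEF (-9.09 ± 1.12). Kcnj8, the channel partner of Abcc9, had 0.149, 0.0401, 0.139 and 0 CPM in the lines and 26.2 CPM in MEF (-8.27 ± 0.78). Enpep, an aminopeptidase that cleaves angiotensin, had 0.149, 0.0803, 0.139 and 0.0443 CPM in the lines and 17.1 CPM in MEF (-7.32 ± 0.30). Each of these genes retained under 1% of its MEF level, as did Eln, but they were picked by the size of their fall.

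Hox genes were lower in 27 of 36 tested cases and higher in 5. Hoxa9 had 3.13, 1.89, 1.44 and 1.82 CPM in the lines and 23.4 CPM in MEF (-3.50 ± 0.33), and Hoxd8 had 4.92, 4.37, 3.80 and 4.16 CPM in the lines and 32.1 CPM in MEF (-2.90 ± 0.18). The 11 genes above 20 CPM in MEF kept 7.14 to 26.5% of their MEF level as means of the lines, with a median of 15.5%. Those higher included genes from the ends of their clusters, Hoxb13, Hoxc12, Hoxc13 and Hoxd13. Hoxc13, known for its role in hair and nails, had 9.50, 14.8, 17.5 and 16.1 CPM in the lines and 0.329 CPM in MEF (5.43 ± 0.58, adjusted p = 4.25e-06). Its neighbour Hoxc12 had 2.64, 3.65, 3.71 and 4.12 CPM in the lines and 0.0471 CPM (1 count) in MEF, a ratio of 75.54 (interval 13.46 to 2993). Hoxd13 had 6.17, 6.30, 3.94 and 3.14 CPM in the lines and 0.188 CPM in MEF (4.66 ± 0.80). Neighbouring Hox genes were far lower than in MEF at the same time: Hoxc9 had 4.03, 2.65, 2.41 and 2.52 CPM in the lines and 29.1 CPM in MEF (-3.32 ± 0.26).

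Epithelial adhesion genes were higher in 32 of 40 cases and lower in 1. Cdh1 (E-cadherin) had 407, 531, 546 and 487 CPM in the lines and 0.894 CPM in MEF (9.10 ± 0.56). Epcam had 66, 78, 92.7 and 90.7 CPM in the lines and 0.141 CPM (3 counts) in MEF, a ratio of 581.7 (interval 199 to 2821). Esrp1, a splicing factor of epithelia, had 5.47, 3.29, 11 and 7.13 CPM in the lines and 0 in MEF, at least 46-fold higher. The tight junction gene Cldn6 had 16.9, 13.2, 19.9 and 13.2 CPM in the lines and 0 in MEF, at least 111-fold higher. The exception was Cdh3 (P-cadherin), at 35.1, 21.9, 32.9 and 27.1 CPM in the lines and 284 CPM in MEF (-3.28 ± 0.32). The simple keratins were not called: Krt8 had 17.2, 35.5, 11.3 and 10.6 CPM in the lines and 7.95 CPM in MEF (1.23 ± 0.63, adjusted p = 0.11), highest in the three-step line. Cdh2 (N-cadherin), the mesenchymal counterpart of Cdh1, was lower, at 51.8, 27.2, 34.6 and 42.1 CPM in the lines and 148 CPM in MEF (-1.92 ± 0.29).

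**Figure D4:**
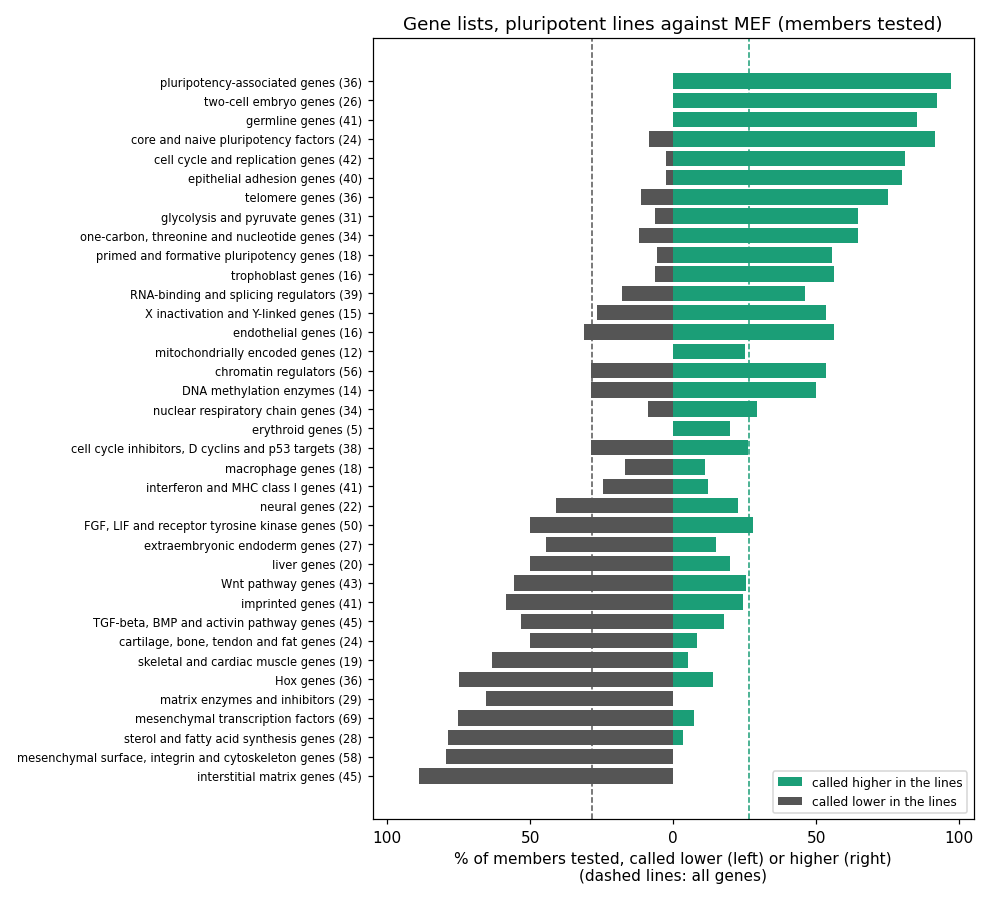
Share of the tested members of each of the 37 gene lists that was called higher in the pluripotent lines (green, to the right) or lower (dark, to the left), in percent; the number tested stands beside each name. Dashed lines mark the shares over all genes tested, 26.4% higher and 28.3% lower; pluripotency-associated genes have 97.2% higher, and interstitial matrix genes have 0.0% higher.

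Glycolysis and pyruvate genes were higher in 20 of 31 cases and lower in 2, and one-carbon, threonine and nucleotide genes were higher in 22 of 34 and lower in 4. The glucose transporter gene Slc2a3 (GLUT3) had 1600, 2210, 1580 and 1530 CPM in the lines and 15.7 CPM in MEF (6.79 ± 0.84, adjusted p = 1.55e-05). Hk2, the first enzyme of glycolysis, had 377, 398, 553 and 554 CPM in the lines and 71 CPM in MEF (2.73 ± 0.34). Ldha, the lactate dehydrogenase of fast glycolysis, had 1160, 1070, 1180 and 1300 CPM in the lines and 956 CPM in MEF and was not called (0.30 ± 0.16, adjusted p = 0.12), though it was with total-count scaling (0.563, adjusted p = 0.00631) and with the 5 libraries alone (adjusted p = 0.0377). Tdh, the threonine dehydrogenase of mouse pluripotent cells, had 240, 248, 264 and 279 CPM in the lines and 0 in MEF, at least 1830-fold higher. Of the glycine cleavage genes that follow it, Gldc and Amt were higher too: Gldc had 94.7, 68.7, 131 and 137 CPM in the lines and 1.13 CPM in MEF (6.57 ± 1.18), and Amt had 105, 116, 96.7 and 97.1 CPM in the lines and 4.66 CPM in MEF (4.47 ± 0.23). As means of the lines, Gcsh of the same system had 174% of its MEF level and Dld 80.1%. Phgdh, the entry to serine synthesis, was lower, at 176, 146, 185 and 187 CPM in the lines and 355 CPM in MEF (-1.03 ± 0.24).

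Nuclear genes of the respiratory chain were higher in 10 of 34 cases and lower in 3, a share of 29.4% higher against 26.4% of all genes tested; with total-count scaling 16 were higher. Among those higher were forms restricted to certain tissues: Cox7a1, the heart and muscle form, had 15.1, 20.9, 14.7 and 12.9 CPM in the lines and 0.659 CPM in MEF (4.58 ± 0.61), and Cox6b2, the testis form, had 68.2, 72.4, 73.2 and 73.1 CPM in the lines and 18.8 CPM in MEF (1.93 ± 0.16). Sterol and fatty acid synthesis genes were lower in 22 of 28 cases and higher in 1. Cyp51, a sterol demethylase, had 90.1, 109, 115 and 109 CPM in the lines and 384 CPM in MEF (-1.86 ± 0.16). The member that was higher was the fatty acid elongase Elovl6, at 267, 351, 269 and 240 CPM in the lines and 100 CPM in MEF (1.49 ± 0.22).

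Imprinted genes, expressed from 1 parental copy, were lower in 24 of 41 cases and higher in 10. The share higher, 24.4%, was close to the 26.4% of all genes tested, while 58.5% were lower, against 28.3%. At the locus they share on chromosome 7, Igf2, a fetal growth factor, had 430, 304, 429 and 505 CPM in the lines and 11100 CPM in MEF (-4.73 ± 0.28), and H19, a long RNA, had 272, 221, 282 and 306 CPM in the lines and 6970 CPM in MEF (-4.69 ± 0.33). Both were lowest in the three-step line. In the cluster on chromosome 12, the maternally expressed RNAs Meg3 (236, 201, 280 and 407 CPM in the lines, 1120 CPM in MEF, -1.99 ± 0.38) and Rian (179, 113, 249 and 378 CPM in the lines, 965 CPM in MEF, -2.07 ± 0.42) were lower, as was the paternally expressed Dlk1, at 13.5, 5.62, 14.2 and 15.4 CPM in the lines and 1250 CPM in MEF (-6.69 ± 0.66). Meg3 and Rian, whose silencing marks mouse iPS lines of low developmental potential, had counts in every line. Meg3 had 21.1, 18.0, 25.1 and 36.5% of its MEF level in the lines, and Rian 18.5, 11.7, 25.8 and 39.2%. The sum of the fibroblast markers had 24.2, 16.1, 19.7 and 23.5% of its MEF level. What part fibroblast RNA has in the Meg3 and Rian levels was not tested. Dio3, at the end of the same cluster, was higher, at 90, 98.7, 18 and 20.8 CPM in the lines and 4 CPM in MEF (3.83 ± 0.97), with both crotonic acid lines well below the other 2. Peg3, a zinc finger gene, had 68.5, 60.9, 232 and 266 CPM in the lines and 1180 CPM in MEF (-2.91 ± 0.52), with both crotonic acid lines above the other 2. Snrpn had 15.7, 15.3, 18.7 and 12.3 CPM in the lines and 2.59 CPM in MEF (2.58 ± 0.31).

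Among the autosomes and the X chromosome, over genes of at least 1 CPM in the lines or in MEF, the X had the lowest median log2 fold change, at -0.35, and chromosome 17 the highest, at 0.08. Against the mean of the other lines, no autosome's median of any line was farther than 0.05 from 0. Xist, the RNA of the inactive X, had 84.4, 64.9, 77.5 and 93.1 CPM in the lines and 205 CPM in MEF (-1.36 ± 0.23), and the Y-linked gene Ddx3y was present throughout, at 56.9, 58.3, 64.8 and 62.2 CPM in the lines and 63.1 CPM in MEF (-0.06 ± 0.30, adjusted p = 0.888). Eif2s3y had 49.8, 58.1, 50.2 and 45.2 CPM in the lines and 35.7 CPM in MEF.

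Genes of other lineages went in different directions. Their counts stand beside 26.4% higher and 28.3% lower among all genes tested. Extraembryonic endoderm genes were lower in 12 of 27 cases and higher in 4; the type IV collagen gene Col4a1 had 442, 335, 334 and 375 CPM in the lines and 2630 CPM in MEF (-2.82 ± 0.20), and Gata6, a factor of primitive endoderm, had 8.11, 8.19, 6.76 and 10 CPM in the lines and 43.2 CPM in MEF (-2.38 ± 0.26). Apoe, which is widely expressed, was higher, at 788, 936, 899 and 992 CPM in the lines and 86 CPM in MEF (3.39 ± 0.53). Muscle genes were lower in 12 of 19 cases and higher in 1, which was Ttn (titin), at 60.8, 76.8, 56.7 and 61.4 CPM in the lines and 1.79 CPM in MEF (5.16 ± 0.68). Neural genes were lower in 9 of 22 cases and higher in 5; Stmn2, a tubulin-binding protein gene of neurons, had 142, 73.4, 155 and 166 CPM in the lines and 3.43 CPM in MEF (5.28 ± 0.58). Endothelial genes were higher in 9 of 16 cases and lower in 5, and the vessel cadherin gene Cdh5 was at 0.0926 to 0.133 CPM in the lines and 0.612 CPM in MEF. Pecam1, an adhesion gene that ES cells also express, had 60.4, 92.7, 77.8 and 66.2 CPM in the lines and 0.376 CPM in MEF (7.60 ± 0.49). Trophoblast genes were higher in 9 of 16 cases and lower in 1. Cartilage, bone, tendon and fat genes were lower in 12 of 24 cases and higher in 2, liver genes lower in 10 of 20 and higher in 4, and erythroid genes higher in 1 of 5 and lower in none.

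Macrophage genes were higher in 2 of 18 cases, lower in 3 and not called in 13. C1qa, a complement gene, had 42.2, 7.26, 19.6 and 21.6 CPM in the lines and 37 CPM in MEF (-0.71 ± 0.79, adjusted p = 0.471), and its level was highest in the ES line and lowest in the three-step line. Laptm5, a lysosomal gene of blood cells, was higher and even across the lines, at 165, 169, 142 and 151 CPM, against 19.7 CPM in MEF (2.99 ± 0.46), and so did not follow C1qa. Interferon and MHC class I genes were higher in 5 of 41 cases, lower in 10 (6 with total-count scaling) and not called in 26. The shares were 12.2% higher and 24.4% lower, against 26.4% and 28.3% of all genes tested. The chemokine Cxcl12 had 51.4, 42, 21.2 and 24.4 CPM in the lines and 539 CPM in MEF (-3.95 ± 0.35), and B2m, the MHC light chain, had 187, 127, 186 and 196 CPM in the lines and 324 CPM in MEF and was not called (-0.89 ± 0.47, adjusted p = 0.123), though it was called lower in a fit of the 5 libraries alone (-0.81, adjusted p = 0.0157).

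The lines resembled each other far more than any of them resembled MEF. Between pairs of lines, 33 to 841 genes were more than 2-fold apart, and between a line and MEF 6947 to 7656 were. Both crotonic acid lines were the closest pair, with 33 genes, against 456 to 841 for the other pairs. The three-step line was the farthest from MEF, with 7656 genes, and the ES line the nearest, with 6947. The fibroblast markers had their lowest share of the MEF sum in the three-step line (16.1%) and their highest in the ES line (24.2%). What part fibroblast RNA has in the order of the lines was not tested. The ES line was also set against the 3 CiPS lines in the same model. No gene was higher in the ES line (0.0% of 19597 genes) and 4 were lower (0.0204%), while at an unadjusted p under 0.05 there were 269 higher and 320 lower. The 4 were Xlr3a, Xlr3b and Xlr4a, X-linked genes of a family with near-identical copies, and the zinc finger gene Zfp229. Xlr3a had 0.696 CPM in the ES line and 12.7, 14.3 and 9.08 CPM in the CiPS lines (log2 fold change, ES over CiPS, -4.10, adjusted p = 0.0111), with 0.0941 CPM in MEF. Zfp229 had 32.9 CPM in the ES line and 75.1, 81.9 and 73.2 CPM in the CiPS lines (-1.22, adjusted p = 0.027), with 8.52 CPM in MEF. In a fit of the 5 libraries alone none of the 4 was called, and without the three-step line 3 genes were higher and 10 lower in the ES line.

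Few genes of a line stood with MEF in place of the other lines. With no test, and on the CPM + 0.5 scale, 2 genes had 1 line within 2-fold of MEF and the other 3 lines at least 8-fold away, both in the three-step line. Baiap2l1, a membrane-bending protein gene of epithelia, had 137, 5.58, 169 and 150 CPM in the lines and 10.8 CPM in MEF. It was not called over all lines (3.41 ± 1.42, adjusted p = 0.0556) and was called without the three-step line (3.82, adjusted p = 0.00297). Rsad2 (viperin), an interferon-induced antiviral gene, had 24, 2.77, 17.6 and 13.8 CPM in the lines and 1.22 CPM in MEF. It was called over all lines (3.56 ± 1.37, adjusted p = 0.0396) but not without the ES line (3.21, adjusted p = 0.0634), without crotonic acid line 1 (3.46, adjusted p = 0.0591) or without crotonic acid line 2 (3.59, adjusted p = 0.0518).

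Besides the two-cell genes, Dio3 and Peg3, some surface genes were on in all lines at unequal levels. Tie1, a receptor of vessel cells, had 28.9, 41.1, 8.89 and 7.93 CPM in the lines and 0.0941 CPM (2 counts) in MEF, a ratio of 235.4 (interval 65.09 to 1946). Jam2, an adhesion gene of pluripotent cells, had 207, 424, 259 and 235 CPM in the lines and 8.47 CPM in MEF (5.05 ± 0.96). Like Zscan4c and Dio3, Tie1 was lower in both crotonic acid lines than in the ES and three-step lines, while Jam2 stood out in the three-step line. With 1 library for the ES line and 1 for the three-step line, differences between methods cannot be told apart from differences between single lines.

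**Figure D5:**
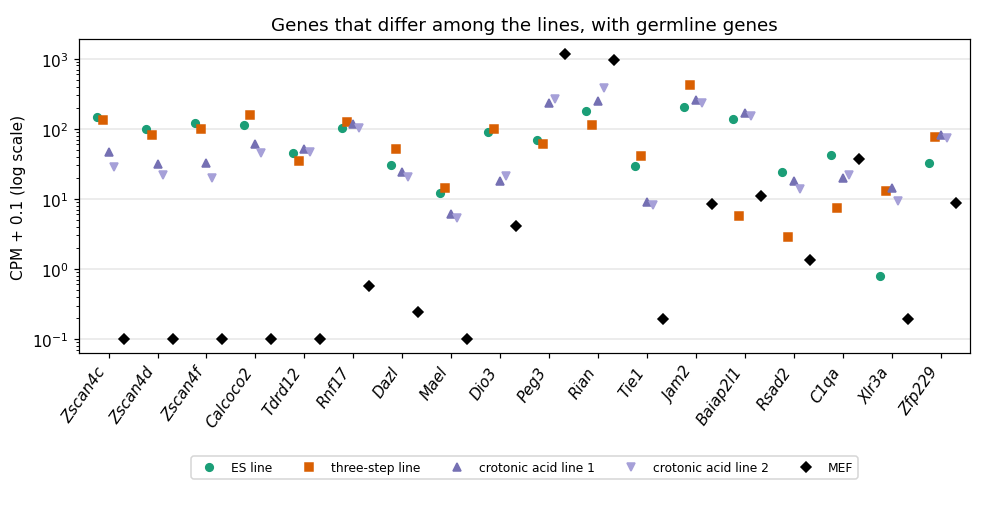
Level of genes that differ among the lines, with germline genes for reference (CPM + 0.1, log scale), in each of the 4 pluripotent lines (coloured points) and in MEF (black diamonds). Zscan4c, Zscan4d and Dio3 are lower and Peg3 is higher in both crotonic acid lines than in the other 2 lines; Baiap2l1 and Rsad2 are low in the three-step line alone, and Xlr3a is low in the ES line.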

How the data were processed

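Per the labels' protocols, RNA was prepared with a kit from Qiagen and libraries with NEBNext Ultra reagents. Strand handling, aligner, counter and genome build are items not given in the sources used here. Whole numbers make up the deposited counts: these are reads per Ensembl gene, left unscaled by the authors, for 47643 identifiers (419 had no symbol). In the deposited FPKM table, used only for alternatives, the authors divided by gene length and by a library factor that is not the column total. A single column of per-sample values (1 in each table) matched no label and was not used. Symbols and chromosomes came from GENCODE M21 and promoter windows from RefSeq.

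All 19 labelled libraries entered 1 model, with the 4 lines as 1 group against MEF. The spread was estimated from the 14 reprogramming libraries and the 4 lines (10 residual degrees of freedom, biological coefficient of variation 21.7%). It therefore pools differences within the culture groups with differences between the lines. The reprogramming libraries also entered the low-count filter and the scaling factors. In a fit of the 5 libraries alone, 17989 genes were tested and the median log2 fold change of all genes was 0.123. The tool was edgeR 4.0.16 in R 4.3.3: filterByExpr at a minimum count of 10, then TMM factors and a 2-sided quasi-likelihood F test, whose F statistic also gave the standard errors. Nothing in the labels says that samples were separate cultures, and the p-values therefore describe a spread that could be technical. CPM values carry the TMM factors. At 20847001 to 26609755 reads in the 5 libraries compared, depth limits only genes with few counts: where a group had none, the fold is a lower bound that gives that group 3 counts, and at 1 to 3 counts a ratio has its exact 95% counting interval; both cover counting error only.

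The 37 gene lists, the lines compared and the tests were chosen with earlier results of these data known, and list counts are descriptions read against the share of all genes called. Genes were named by a rule: a chosen set of genes of pluripotency, germline, telomeres, fibroblasts, imprinting and other cell types, the 12 largest changes in each direction at 10 CPM or more, up to 6 called members of a list with the smallest p and its exceptions, and genes that stand with MEF in 1 line. Not every such gene is named, since some are not reported here, and others (such as the zinc finger genes of chromosome 4, Crxos, genes for which the lines differ, and further pathway members) were chosen after their values were seen. The alternatives were RLE factors; total counts; no low-count filter; a 2-fold threshold; the 5 libraries alone; CiPS or ES lines alone; each line left out; DESeq2 1.42.0; limma-voom; and limma 3.58.1 on log2(FPKM + 1) or log2(FPKM + 0.1) at a mean FPKM of at least 1. The three-step line alone, and every alternative for the ES line against CiPS lines, were added after the data were seen. On simulated counts modelled on these libraries (18545 genes, 100 changed at each of 2 sizes), the test recovered 79% of changes of 1.5 and 98% of changes of 3 on the log2 scale, with 11 false calls. Far fewer genes were changed there than were called in the data, and simulated MEF had the same spread as the other groups. The simulation therefore cannot test whether MEF varies like them, nor the scaling when many genes change.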

Additional observations from a re-analysis of the deposited data

Results flagged for a closer look

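Among the 184 genes named that reached 1 CPM in a line, 9 had 1 line set apart from the other 3 by more of the range than Dixon's 95% limit for 4 samples allows. Chance flags about 1 in 20 such groups, and 9 of 184 is close to that. Some of these genes, such as Xlr4a, were named because the lines differed in them. The three-step line was high in Fgf4 (283 CPM, against 210, 197 and 196 in the ES line and crotonic acid lines 1 and 2), Jarid2 (481 CPM, against 359, 337 and 347), Mcl1 (904 CPM, against 825, 815 and 818) and Slc2a3 (2210 CPM, against 1600, 1580 and 1530), and low in B2m (127 CPM, against 187, 186 and 196). Crotonic acid line 2 was high in Sfrp2 (5.89 CPM, against 4.92, 4.98 and 5). The ES line was high in Hoxc9 (4.03 CPM, against 2.65, 2.41 and 2.52) and low in Cox6b2 (68.2 CPM, against 72.4, 73.2 and 73.1) and Xlr4a (0.0497 CPM, against 2.49, 2.46 and 2.26). Of 4 summed lists examined in the same way, the core and naive pluripotency factors stood apart, with 8650 CPM in the three-step line against 7340, 7210 and 7210 CPM in the others.

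In the fit of all libraries, 4 genes differed between the single ES line and the CiPS lines (edgeR's quasi-likelihood test); none was called with the 5 libraries alone, and 3 higher and 10 lower genes without the three-step line. The log2 fold change, ES over CiPS, was -5.44 for Xlr4a (adjusted p = 0.00468), -2.86 for Xlr3b (adjusted p = 0.00899), -4.10 for Xlr3a (adjusted p = 0.0111) and -1.22 for Zfp229 (adjusted p = 0.027), and each was lower in the ES line than in all 3 CiPS lines. Xlr3b had 1.29 CPM in the ES line, 7.62, 11.7 and 9.08 CPM in the CiPS lines and 3.34 CPM in MEF.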

How the results depend on the processing

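Over the alternatives, the genes higher in the lines ranged from 3800 (log2(FPKM + 1)) to 6487 (total-count scaling) and the lower genes from 3854 (at least 2-fold) to 5599 (limma-voom), within 1.5 times of 5172 and 5548 in each; leaving out 1 line gave 4891 to 5015 higher and 5215 to 5373 lower, and no gene called over all lines was called in the opposite direction by an alternative. Of 179 named genes that were called, 162 were called in every alternative that tested them. Xlr3b, not called over all lines, was called lower with the ES line alone (log2 fold change -1.36, adjusted p = 0.00966) and higher with the CiPS lines alone (1.5, adjusted p = 0.000817); the log2 fold change of Xlr4a turned to -0.85 with the ES line alone (adjusted p = 0.694). Silent genes set at 0 counts and on genes from 1 CPM gave 325 in place of 190 genes on in the lines, and total-count scaling gave 5 in place of 8 genes off in them; 4-fold in place of 8-fold gave 6 in place of 2 genes with a line near MEF. Vim and Thbs1 passed without a filter on low counts (adjusted p = 0.0139 and 0.0192) and with the 5 libraries alone (adjusted p = 0.00502 and 0.00191), as did B2m, Fbln2, Cdkn2a and Ldha with those libraries (adjusted p = 0.0157, 0.0289, 0.0497 and 0.0377), and Krt8 with DESeq2 (adjusted p = 0.044). Dio3 did not pass with limma-voom (adjusted p = 0.0518), nor Alb with DESeq2 (adjusted p = 0.231). Of 1258 list counts 1145 stayed within 1.5 times. With the ES line alone, 25 in place of 40 matrix genes, 11 in place of 19 matrix enzyme genes, 30 in place of 46 surface genes and 3 in place of 10 liver genes were lower, and 13 in place of 20 glycolysis genes were higher; the cause was not tested. A 2-fold threshold left 12 glycolysis and 14 sterol genes, and 3 respiratory chain genes. On the FPKM scale, where fewer genes were tested, 6 muscle, 6 cartilage and 3 liver genes were lower. The ES line against the CiPS lines gave 0 to 3 higher and 0 to 10 lower genes. No paired analysis was possible because MEF has 1 library and the labels of the lines carry no shared replicate numbers. Depth limits genes of few counts in MEF, whose folds are bounds or ratios.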
